A study of Mus musculus with 282 samples.

Results

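The 4 genes described here encode the feeding peptides of the arcuate nucleus: Agrp, Npy, Pomc and Cartpt. They were chosen by name. Each is the sum of the deposited transcripts that carry its name in the study's merged assembly, and together they account for 12 of 51024 transcripts and for 4 of 12874 named genes. The samples were whole hypothalami of 282 male mice fed a high fat, high sugar diet, from 99 inbred and recombinant inbred strains of the Hybrid Mouse Diversity Panel (HMDP), and the labels give 1 unstranded mRNA library per mouse. No group received another diet or a treatment, and the ages of the mice are not given in the sources used here. The strains comprise 18 of the AXB/BXA set (recombinant inbred strains from A/J and C57BL/6J), 43 of the BXD set (C57BL/6J and DBA/2J), 6 of the BXH set (C57BL/6J and C3H/HeJ), 7 of the CXB set (BALB/cJ and C57BL/6J) and 25 other inbred strains. The libraries of CXB-6/ByJ mice 2 and 3 were alike up to a constant factor of 0.995: the SD of the log2 ratio was 2.8e-06 over 106301 deposited features above 0.1 FPKM in both, against 0.796 for the next most alike pair of mice from 1 strain. They differed by less than the sampling noise and were counted as 1 mouse, by their mean, although the labels name separate mice. A strain was then represented by 3 mice in 84 cases, by 2 mice in 13 and by 1 mouse in 2, which gave 280 mice, and 1 more mouse, whose labels name 2 strains, entered no comparison between strains. Expression is given in FPKM, a count of fragments scaled by transcript length and library size, so levels of different genes are compared per length. Tests used log2(FPKM + 1).

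In the arcuate nucleus, neurons that make Agrp and Npy promote feeding, and neurons that make Pomc and Cartpt restrain it. Pomc is cut into alpha-MSH, which activates melanocortin receptors, and Agrp blocks the same receptors. Leptin and insulin act on both kinds of neuron. Some of the genes are also used elsewhere: Npy in interneurons of cortex and other brain regions, Cartpt in several other hypothalamic nuclei, and Pomc in the corticotrophs and melanotrophs of the pituitary, a gland attached to the hypothalamus. In whole hypothalamus, fewer cells of a type and less RNA per cell cannot be told apart.

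The Cartpt locus (chr13:99898463-99927416, minus strand, mm10) held 4 transcripts, and the one matching the reference annotation differs from the others in its second exon. This exon is shown in both forms because the choice between them decides which peptide precursor is made. It has 84 or 86 nt in the 3 unannotated transcripts and is longer in the known one. Capitals mark the 39 nt that only the long form holds (chr13:99900041-99900079).
Cartpt exon 2, long form, chr13:99899957-99900079, minus strand: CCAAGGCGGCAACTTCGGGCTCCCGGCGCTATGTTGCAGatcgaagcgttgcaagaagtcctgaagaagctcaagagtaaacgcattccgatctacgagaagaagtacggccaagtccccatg
Cartpt exon 2, short form, chr13:99899957-99900040, minus strand: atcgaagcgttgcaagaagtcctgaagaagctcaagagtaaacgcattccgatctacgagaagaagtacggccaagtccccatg

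Promoter sequence was matched for 3 of the 4 members, all but Agrp, in the RefSeq promoter table (GRCm38.p6, 300 nt each, with 250 nt before and 50 nt after the start). The windows of 30 nt below are shown for the motifs in capitals: a TATA-like stretch in Npy and Pomc, and the cyclic AMP response element TGACGTCA in Cartpt, which lies 112 nt before the start.
Npy, chr6:49822678-49822707, plus strand: caagggcgctccATAAAAgcctgtgggcga
Pomc, chr12:3954908-3954937, plus strand: caaccctgcaagTATAAAAgaagagagaag
Cartpt, chr13:99900778-99900807, minus strand: cccggcgggcatTGACGTCAaacggcagcg
Each motif was searched on both strands. Of all 32851 promoters in the table, 24.9% held the motif TATAA. The motif ATAAAA, whose matches can overlap those of the first, was held by 18.5%, and the response element by 1.79%. Cartpt also held TATAA, from 1 nt before its RefSeq start and from 43 nt before the start of its GENCODE M21 transcript. The matches describe the sequence only, and no binding was measured.

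By the median over mice, Cartpt was the most abundant of the 4 genes and Agrp the least. Agrp, the melanocortin antagonist, ranged over all mice from 0.108 through a median of 1.49 to 21.8 FPKM (1.87 ± 1.56, SD), and it was below 1 FPKM in 58 mice. Npy, which encodes neuropeptide Y, ranged from 5.49 through 15.3 to 66.02 FPKM (16.1 ± 5.60). Cartpt, which encodes the cocaine- and amphetamine-regulated transcript peptides, ranged from 34.6 through 61.7 to 396 FPKM (65.04 ± 25.5). The upper end of these 3 ranges was the same mouse. Pomc, the melanocortin precursor, ranged from 0.657 through 22.1 to 6341 FPKM (250.6 ± 846.7), and its mean was above its upper quartile of 38.9 FPKM.

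**Figure D1:**
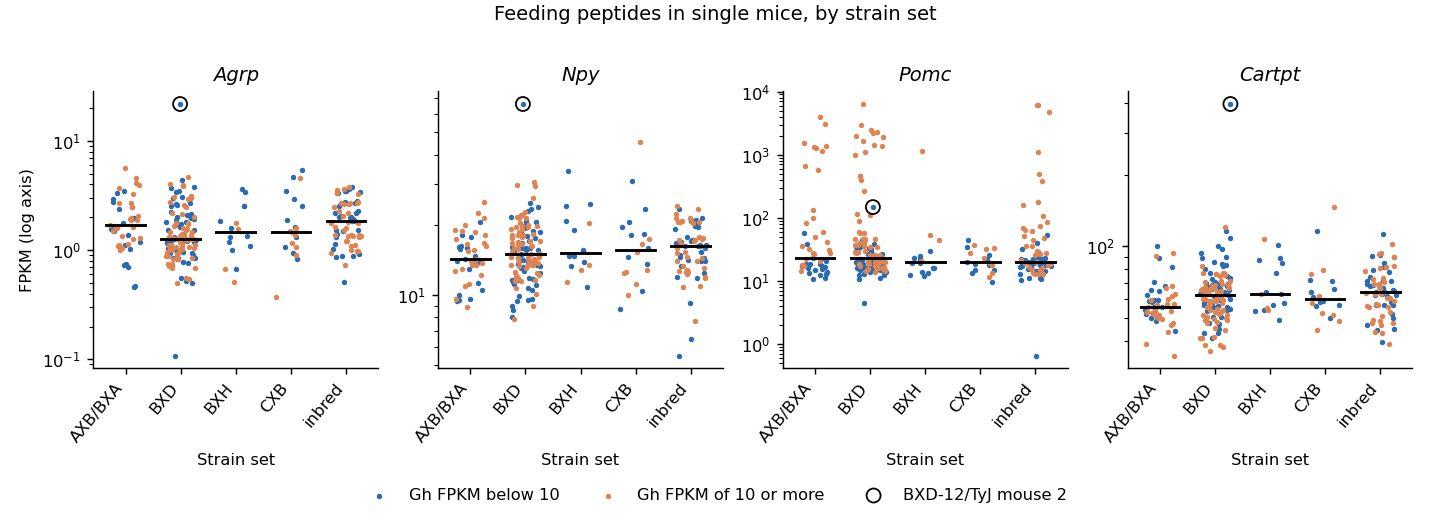
Each point is the FPKM of one mouse (vertical log axis) in one of the 5 strain sets (horizontal axis), for Agrp, Npy, Pomc and Cartpt, and black bars are medians of a set. Blue points are mice with Gh below 10 FPKM and orange points the others. The circled mouse, BXD-12/TyJ mouse 2, has the highest Agrp (21.8 FPKM), Npy (66.02 FPKM) and Cartpt (396 FPKM), and Pomc values above 1000 FPKM are orange.

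A pair of libraries stood apart from the rest. In BXD-12/TyJ mouse 2 the FPKM of all named genes summed to 621048, 2.06 times the median of the other mice (301883, range 285681 to 392123). Relative to those medians this library had 14.7 times the Agrp, 4.33 times the Npy, 6.70 times the Pomc and 6.45 times the Cartpt. It also had the highest FPKM of all mice for Pmch, Hcrt, Oxt and Avp, other hypothalamic peptide genes, and the lowest for Pcsk1 and Pcsk2, the prohormone convertases that cut peptide precursors. CXB-3/ByJ mouse 3 came second, with a sum of 392123 against at most 322644 in the remaining mice, and it was second for Npy (45.4 FPKM) and Cartpt (145 FPKM). Without BXD-12/TyJ mouse 2 the highest Agrp was 5.66 FPKM (AXB-15/PgnJ mouse 3), and the means became 1.80 ± 1.01 for Agrp, 15.9 ± 4.74 for Npy and 63.9 ± 16.1 for Cartpt (SD, all other mice). Strain shares and pairwise correlations of the members are given with and without BXD-12/TyJ mouse 2. Results for transcripts, tissue markers and other genes include both libraries unless stated otherwise. At the other end, MA/MyJ mouse 3 had the lowest Npy (5.49 FPKM), Pomc (0.657 FPKM) and Avp (69.7 FPKM), while its Cartpt, 45.0 FPKM, lay inside the range of the other mice.

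Pomc was higher in mice with more transcript of growth hormone (Gh), a marker of the anterior pituitary, and Cartpt was lower. Median Pomc was 17.2 FPKM in the 56 mice with Gh below 1 FPKM and 18.5 in the 79 mice with Gh from 1 to 10. It was 24.7 FPKM in the 93 mice with Gh from 10 to 100, 45.2 in the 29 mice with Gh from 100 to 1000, and 1387.1 in the 24 mice with Gh of 1000 or more. Over the same 5 bins median Agrp stayed between 1.37 and 1.73 FPKM, and median Npy between 14.3 and 16.6 FPKM. Median Cartpt was 63.4 FPKM in the lowest bin and 57.7 FPKM in the highest. Over all mice Gh was related to Pomc (r = 0.73, rho = 0.57, permutation adjusted p = 3.0e-05 and 3.5e-05 over 21 relations between single mice; r = 0.72 without the 2 mice farthest in Gh) and to Cartpt (r = -0.21, rho = -0.22, permutation adjusted p = 6.7e-04 and 6.1e-04; r = -0.22 without the 2 farthest). The relations of Gh to Agrp (r = -0.02, rho = -0.04, permutation adjusted p = 0.779 and 0.576) and to Npy (r = -0.02, rho = -0.00, permutation adjusted p = 0.751 and 0.962) did not pass. The 6 anterior pituitary markers found among the named genes (Gh, Prl, Cga, Tshb, Lhb and Fshb) summed to 0 to 28.2 FPKM (median 5.38) in the mice with Gh below 10 and to 14.7 to 15579 FPKM (median 81.2) in the others. The melanotroph marker Pax7 and the corticotroph marker Tbx19 were not among the named genes analysed here, so the source of Pomc within the pituitary was not tested.

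**Figure D2:**
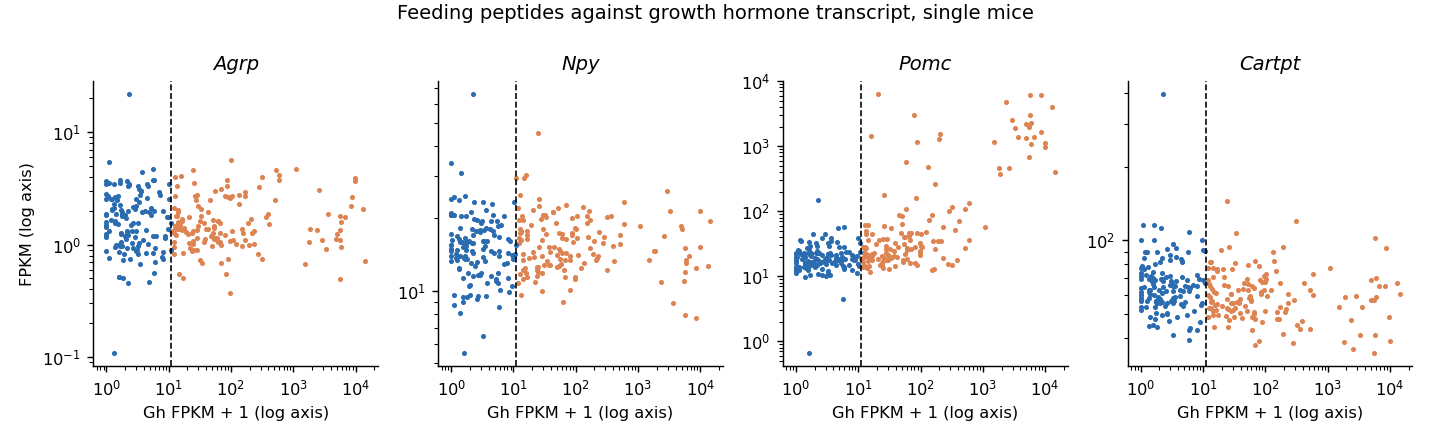
Each point is one mouse, with Gh FPKM + 1 on the horizontal log axis and the FPKM of the member on the vertical log axis. The dashed line marks a Gh of 10 FPKM, and blue points lie below it. Pomc rises from a median of 17.2 FPKM in mice with Gh below 1 FPKM to 1387.1 FPKM in mice with Gh of 1000 FPKM or more, while median Agrp stays between 1.37 and 1.73 FPKM over the same range and median Cartpt goes from 63.4 to 57.7 FPKM.

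High Pomc also occurred where Gh was low to moderate. The highest Pomc of all, 6341 FPKM, was measured in BXD85 mouse 2, whose Gh was 19.96 FPKM and whose Prl (prolactin) was 0.0023 FPKM, and the other BXD85 mice had 88.1 and 60.6 FPKM. AXB-8/PgnJ mouse 1 had 1286 FPKM of Pomc with 194 FPKM of Gh, and mouse 2 had 3969 FPKM with 13108 FPKM of Gh. The mice of SM/J disagreed most: mice 1 and 2 had 6211 and 6040 FPKM of Pomc with 8637 and 5704 FPKM of Gh, and mouse 3 had 10.6 FPKM with 1.598 FPKM of Gh. A preset limit, Gh below 10 FPKM, was used to set aside mice with the most pituitary transcript, which left 135 mice, 134 of them with a strain. In these mice Pomc ranged from 0.657 through 18.3 to 148 FPKM (21.2 ± 13.9, SD, n = 135), or to 56.9 FPKM without BXD-12/TyJ mouse 2. Within this range the relation of Pomc to Gh did not pass (r = 0.11, rho = 0.13, permutation adjusted p = 0.257 and 0.157, 135 mice; r = 0.09 without the 2 mice farthest in Gh). The mice just inside the threshold, C57L/J mouse 2 (9.76 FPKM of Gh) and BXD51 mouse 3 (9.82), had 23.3 and 32.9 FPKM of Pomc. Those just outside, BXD-6/TyJ mouse 2 (10.1) and BXD74 mouse 2 (10.97), had 18.4 and 28.4 FPKM.

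Agrp, Npy and Cartpt differed between strains about as much as the typical hypothalamic gene or slightly more, and Pomc slightly less. The part of the variance that lay between strains, computed from the F statistic and here called the strain share, was 0.281 for Npy, 0.277 for Cartpt, 0.244 for Agrp and 0.155 for Pomc, against a median of 0.182 over all 12874 named genes. All 4 passed the moderated F test of limma over 99 strains (adjusted p = 1.83e-05 for Npy, 2.46e-05 for Cartpt, 1.68e-04 for Agrp and 0.0108 for Pomc), as did 66.7% of all named genes. Without BXD-12/TyJ mouse 2 the shares were 0.310 for Agrp, 0.282 for Npy, 0.338 for Cartpt and 0.158 for Pomc, all again past the threshold, where 74.5% of named genes passed and the median share was 0.218. The call of Pomc also depended on which mice were used, with shares of -0.06 to 0.31 when replicate 1, 2 or 3 of each strain was left out, and it was lost without replicate 1 and without replicate 2. Atp6v0d1, a proton pump subunit whose transcripts share the deposited locus with Agrp, had a share of 0.038 (limma adjusted p = 0.355), which became 0.123 without BXD-12/TyJ mouse 2 and 0.259 (adjusted p = 3.4e-04) without CXB-3/ByJ mouse 3 as well. The locus as a whole was dominated by Atp6v0d1, with Agrp transcripts making up 1.57% of its mean FPKM, and the share of the deposited row of that locus was 0.0255.

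The strain difference of Pomc did not pass in mice with little pituitary transcript, nor did those of the other members. With Gh below 10 FPKM, 0 of the 4 members passed the limma test over the 75 strains that remained (adjusted p = 0.836 for Pomc, 0.342 for Agrp, 0.174 for Npy and 0.394 for Cartpt; lowest unadjusted p = 0.0769), where 26.1% of named genes passed. The share of Pomc was -0.143, and 96.9% of named genes had a larger share. A share falls below 0 where strain means lie closer together than the spread within strains would give. Pomc also did not pass with Gh below 1 FPKM (share -0.272), with Gh below 100 FPKM (0.122, limma adjusted p = 0.0934) or with Gh and Prl summing to less than 10 FPKM (-0.199), and its share lay between -0.586 and 0.220 when each replicate number was left out of the mice below 10. The shares of Agrp (0.087), Npy (0.173) and Cartpt (0.069) stood beside a median of 0.164 over all names. This subset is small: 31 of its strains have 1 mouse, 29 have 2 and 15 have 3. Leaving out BXD-12/TyJ mouse 2 raised the shares of Agrp to 0.242 (adjusted p = 0.0556) and of Cartpt to 0.184, while Npy came to 0.141 and Pomc to -0.115. None of the 4 passed there either, and 46.4% of named genes did. With all mice and log2 Gh as a covariate, added after the data were seen, Pomc had a share of 0.144 (limma adjusted p = 0.0170), where 66.2% of named genes passed. Gh itself had a strain share of 0.276 (limma adjusted p = 2.32e-05), and 24 strains had no mouse below 10 FPKM.

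**Figure D3:**
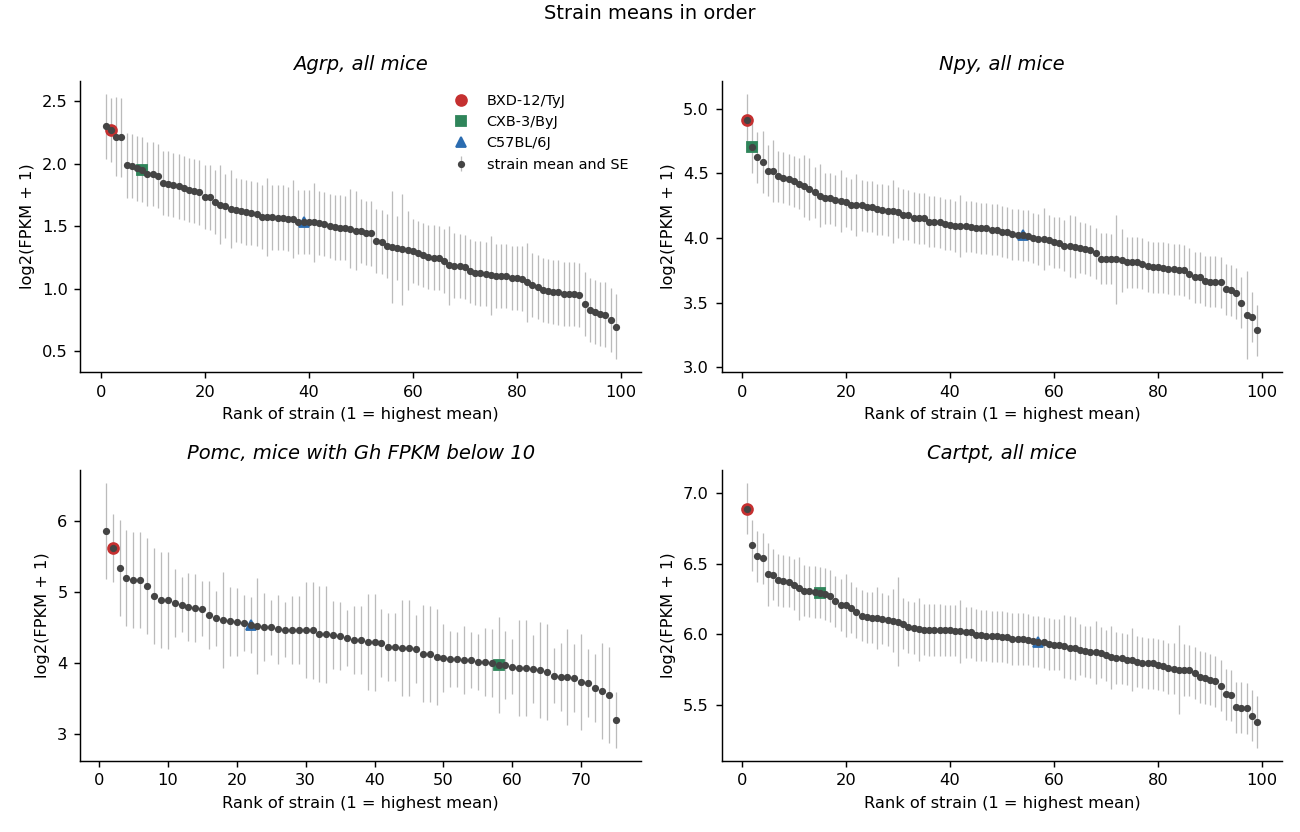
Points are strain means of log2(FPKM + 1) (vertical axis) in falling order (horizontal axis, rank), with bars of 1 SE from the fitted residual spread. Agrp, Npy and Cartpt are shown for 99 strains and Pomc for the 75 strains with mice below 10 FPKM of Gh. BXD-12/TyJ (red) leads for Npy and Cartpt, at 29.2 and 118 FPKM on the back-transformed log scale.

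Strain means of log2(FPKM + 1) spanned 1.602 for Agrp, 1.63 for Npy and 1.51 for Cartpt over 99 strains. Without BXD-12/TyJ mouse 2 the spans were 1.602, 1.42 and 1.25. Neighbours in the order of strain means did not differ by more than 2 standard errors for any member. Within 2 standard errors of the highest strain were 36 strains for Agrp, 13 for Npy and 7 for Cartpt, or 24, 31 and 20 without that mouse.

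For Agrp the highest strain was AXB-15/PgnJ, with mice at 2.97, 3.502 and 5.66 FPKM, followed by BXD-12/TyJ (0.988, 21.8 and 1.47) and PL/J (3.79 and 3.51). The lowest was BXH-4/TyJ, at 0.679, 0.678 and 0.510 FPKM, after BXD64 (0.775, 0.108 and 1.41) and BXD-20/TyJ (1.05, 0.685 and 0.505). The mice of AXB-15/PgnJ and of BXH-4/TyJ did not overlap, but strains picked as ends by these values tend not to, so this is no test. The rank of BXD-12/TyJ rests on 1 mouse of 3.

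For Npy the highest strains were BXD-12/TyJ (20.5, 66.02 and 18.0 FPKM), CXB-3/ByJ (16.6, 20.5 and 45.4) and CXB-7/ByJ (18.3, 30.9 and 23.4). The lowest were BXD45 (9.89, 7.88 and 8.58 FPKM), SM/J (7.69, 11.9 and 9.22) and AXB-12/PgnJ, with 1 mouse at 9.60. The values of CXB-7/ByJ and BXD45 did not overlap, which is likewise no test, because these strains were picked by their values.

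For Cartpt, BXD-12/TyJ again came first (62.6, 396 and 64.99 FPKM), then BXHB2 (87.1, 107.5 and 101) and C57L/J (78.9, 90.2 and 112). The lowest were BXD-15/TyJ (36.1, 48.7 and 38.2 FPKM), SWR/J (43.2, 39.3 and 43.4) and BXD-9/TyJ (48.8, 41.5 and 40.9). All mice of BXHB2 and C57L/J lay above all mice of these 3 low strains, which were again picked as ends by their values.

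For Pomc in mice with Gh below 10 FPKM the order began with strains of few mice: AXB-5/PgnJ (1 mouse, 56.9 FPKM), BXD-12/TyJ (15.3 and 148) and RIIIS/J (1 mouse, 39.4). It ended with CBA/J (1 mouse, 11.2 FPKM), SM/J (1 mouse, 10.6) and MA/MyJ (23.1, 18.2 and 0.657). In all mice the highest Pomc strains were AXB-8/PgnJ, SM/J and BXD51 (1998, 1914 and 32.9 FPKM), and the lowest BXH-19/TyJ (13.5 and 12.4), AKR/J (12.7, 14.3 and 10.2) and MA/MyJ.

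Within strain sets, 6 of 20 combinations of member and set passed the limma test, adjusted over all names in each set. Npy passed among the 43 BXD strains (share 0.317, adjusted p = 1.53e-04) and among the 7 CXB strains (0.559, 0.00446), where CXBH was lowest and CXB-3/ByJ highest. Cartpt passed among BXD strains (0.315, adjusted p = 1.78e-04) and among the other inbred strains (0.283, 0.0109). Agrp passed among the 18 AXB/BXA strains (0.371, adjusted p = 0.0109) and among BXD strains (0.211, 0.00924). Pomc passed in none, with limma adjusted p = 0.0618 in AXB/BXA and 0.0627 in BXD as the lowest. Of all named genes, 14.3% passed in AXB/BXA, 60.2% in BXD, 16.4% in BXH, 11.4% in CXB and 32.7% in the inbred set. Without BXD-12/TyJ mouse 2, 10 combinations passed and the background was 21.7%, 55.6%, 23.1%, 23.1% and 43.8% in the same order. The added calls were Agrp and Cartpt in BXH (share 0.438 and 0.530), Npy in the inbred set (0.224) and Pomc in AXB/BXA (0.287, limma adjusted p = 0.0451). BXD-12/TyJ mouse 2 belongs to none of these sets, so the values of their own mice did not change, and the shared residual spread did. The call of Npy in CXB remained when CXB-3/ByJ mouse 3 was also left out (share 0.475, limma adjusted p = 0.0344).

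The parents of the recombinant inbred sets did not differ detectably. Against C57BL/6J, 0 of 16 contrasts with A/J, DBA/2J, C3H/HeJ or BALB/cJ passed the limma test (3 mice each, lowest unadjusted p = 0.222), where 4.48%, 3.68%, 4.43% and 3.96% of named genes passed. Agrp was 1.92 ± 0.450 FPKM in C57BL/6J, 2.62 ± 0.631 in A/J, 1.40 ± 0.481 in DBA/2J, 1.13 ± 0.198 in C3H/HeJ and 1.81 ± 0.840 in BALB/cJ (SD, n = 3). Npy was 15.6 ± 4.29, 16.5 ± 1.13, 15.1 ± 2.00, 12.5 ± 1.55 and 18.3 ± 3.44 FPKM in the same order. Cartpt was between 60.1 and 64.6 FPKM in all 5 parents. The difference of Pomc between A/J (87.7 ± 69.4 FPKM) and C57BL/6J (22.5 ± 5.40) was 1.496 ± 1.53 (SE) on the log2 scale, and the 3 A/J mice had 32.1 to 84.9 FPKM of Gh while those of C57BL/6J had at most 0.70. The strain means of Agrp within AXB/BXA ran from 0.739 FPKM in AXB-13/PgnJ to 3.92 in AXB-15/PgnJ on the back-transformed log scale.

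Agrp and Npy, which are made by the same arcuate neurons, varied together over strains. Their strain means correlated with r = 0.48 (rho = 0.47, 99 strains, permutation adjusted p = 6.0e-05 for both, from the smallest p that the permutations can give). The correlation was 0.46 without the 2 strains farthest in Agrp, 0.43 without BXD-12/TyJ mouse 2, and between 0.43 and 0.77 within each of the 5 strain sets. Within sets it passed only among the BXD strains (permutation adjusted p = 0.00271 for r). It was also present among mice of the same strain, as deviations from the strain mean (r = 0.40, rho = 0.30, every strain with 2 or more mice, permutation adjusted p = 2.8e-04 and 2.6e-04). Among mice below 10 FPKM of Gh and without BXD-12/TyJ mouse 2 these deviations gave r = 0.32 (rho = 0.28, 101 mice, permutation adjusted p = 0.0525 and 0.0453), which passed by rho and not by r. Pomc and Cartpt are both made by the opposing neurons, and Cartpt also in other hypothalamic nuclei. They correlated over the 75 strains with mice below 10 FPKM of Gh (r = 0.44, rho = 0.32, permutation adjusted p = 2.1e-04 and 0.00952), and with r = 0.35 without BXD-12/TyJ mouse 2. Their correlation within strains was r = 0.61 (rho = 0.65, 103 mice, permutation adjusted p = 1.2e-04 and 6.0e-05), and r = 0.49 without that mouse. Within sets it ranged from -0.30 in AXB/BXA to 0.68 in BXD.

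**Figure D4:**
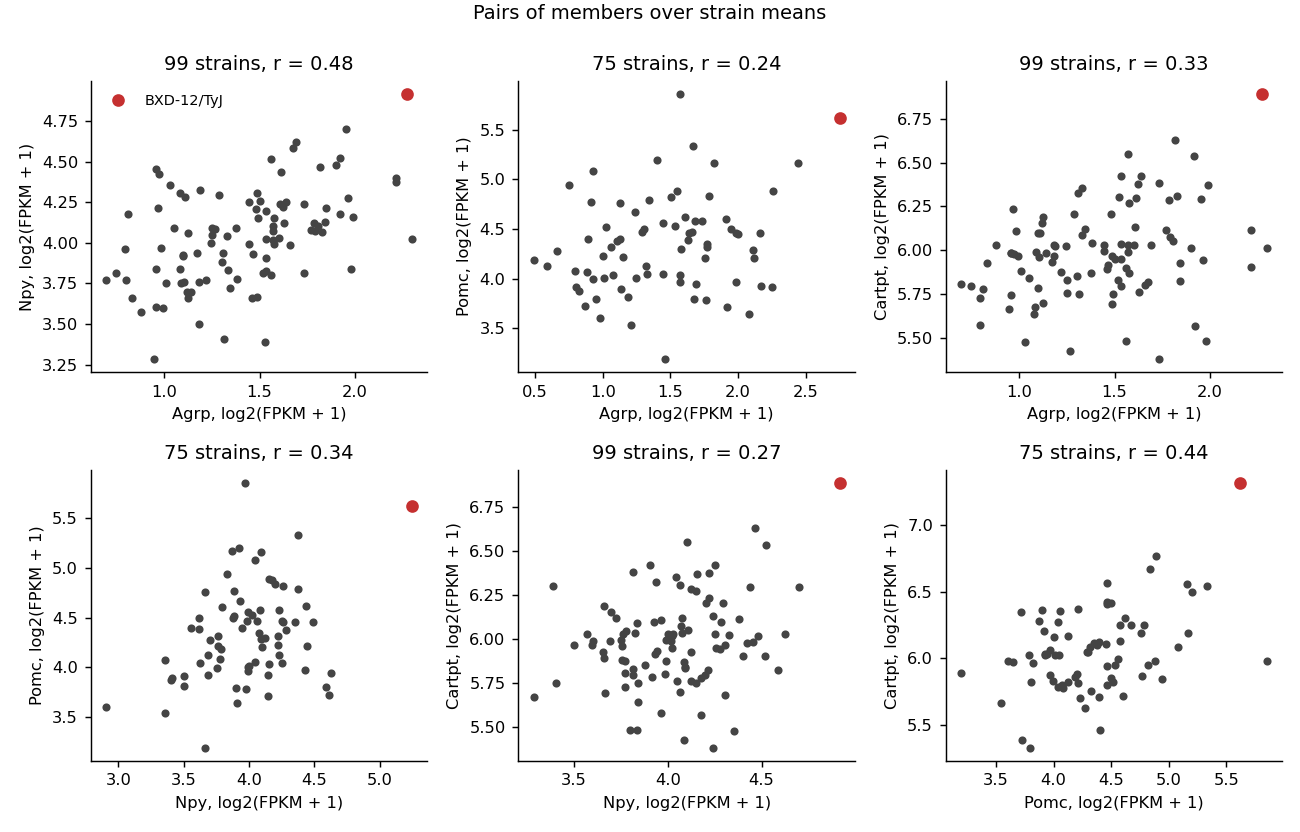
Each point is the mean log2(FPKM + 1) of one strain for the 2 members named on the axes, over 99 strains, or over 75 strains with mice below 10 FPKM of Gh where Pomc is one of them. Pearson's r stands above each panel. The red point is BXD-12/TyJ, which lies at the upper right of each panel, and for Agrp and Npy r is 0.48 with its mouse 2 and 0.43 without.

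Pairs of a peptide that promotes feeding with one that restrains it were positive too, and differences in r between pairs were not tested. All 6 pairs passed by r in permutation tests adjusted over the 6, and 4 passed by rho. Agrp and Cartpt had r = 0.33 (rho = 0.32, adjusted p = 0.0018 and 0.00423), and r = 0.27 both without BXD-12/TyJ mouse 2 and without the 2 farthest strains. Npy and Cartpt had r = 0.27 (rho = 0.19, adjusted p = 0.00973 and 0.0793), Npy and Pomc r = 0.34 (rho = 0.25, 0.00498 and 0.0480), and Agrp and Pomc r = 0.24 (rho = 0.19, 0.0369 and 0.111). Without BXD-12/TyJ mouse 2 these last 3 no longer passed (r = 0.18, 0.23 and 0.17), nor did they without the 2 farthest strains (r = 0.16, 0.19 and 0.11). With all mice in place of those below 10 FPKM of Gh, the 3 pairs with Pomc had r between -0.06 and 0.02. Over the 75 strains with mice below 10 FPKM of Gh, the r of Agrp and Cartpt was 0.55, beside 0.52 for Agrp and Npy and 0.37 for Npy and Cartpt. As deviations from the strain mean the r was 0.57 for Agrp and Pomc (103 mice) and 0.53 for Agrp and Cartpt (every strain with 2 or more mice), and both passed. It was 0.34 for Npy and Cartpt (the same mice), which passed, and 0.43 for Npy and Pomc (103 mice, permutation adjusted p = 0.0597), which did not. Without BXD-12/TyJ mouse 2 and below 10 FPKM of Gh (101 mice), r was 0.435 for Agrp and Pomc and 0.438 for Agrp and Cartpt. Both still passed, as did Npy and Cartpt (0.307), while Npy and Pomc (0.321) did not. Of the 10 highest and the 10 lowest strains for Agrp, 3 and 4 were also among those for Npy. BXD-12/TyJ was among the 10 highest strains for both members of all 6 pairs and RIIIS/J for 5 of them. These ranks include BXD-12/TyJ mouse 2 and CXB-3/ByJ mouse 3, and the strains shared without them were not counted. The other mice of BXD-12/TyJ had 0.988 and 1.47 FPKM of Agrp, beside a median of 1.49 over all mice.

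The ratio of Agrp to Npy differed between strains over all mice, and did not pass when a replicate number or the mice with Gh of 10 FPKM or more were left out. The difference of Agrp minus Npy in log2(FPKM + 1) averaged -2.62 ± 0.494 (SD) and had a strain share of 0.197 (permutation test, adjusted p = 0.00402 over 3 ratios). It was highest in AXB-15/PgnJ (-1.73) and lowest in BXD56 (-3.498). Without BXD-12/TyJ mouse 2 the share was 0.223. When each replicate number was left out the share was 0.165 to 0.223 (permutation adjusted p = 0.157, 0.0774 and 0.0571), and in mice below 10 FPKM of Gh it was 0.018 (permutation adjusted p = 0.455). In mice below 10 FPKM of Gh, Agrp minus Pomc had a share of 0.249 (adjusted p = 0.0726) and Pomc minus Cartpt one of 0.037 (0.414), and neither passed.

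Transcripts of 1 gene did not behave alike. Agrp was made up of the known transcript (chr8:105566700-105568298, minus strand, mm10, 5 exons, 659 nt, 1.11 ± 1.599 FPKM) and an unannotated isoform of 3805 nt that starts upstream at the far end of the same locus, at position 105609910 (0.764 ± 0.294 FPKM). The known transcript was listed at 0 in 39 mice and the isoform in 1. They share exons, so the split of reads between them is an estimate, and its part in the relations below was not tested. The known transcript followed Npy over mice (r = 0.43, rho = 0.37, permutation adjusted p = 3.0e-05 and 3.5e-05, all mice; r = 0.37 without the 2 farthest mice). The isoform did not (r = -0.02, rho = 0.05, permutation adjusted p = 0.779 and 0.522). The 2 transcripts were negatively related to each other (r = -0.22, rho = -0.23, permutation adjusted p = 4.0e-04 and 2.6e-04; r = -0.19 without the 2 farthest mice). The strain share was 0.275 for the known transcript and 0.077 for the isoform (permutation test, adjusted p = 2.7e-05 and 0.111 over 8 transcript groups). Of the isoform, 578 nt lie in exons of Agrp in GENCODE M21 and 147 nt in an exon of another gene, Gm38250, and because the libraries did not keep strand their reads cannot be told apart. All sums of Agrp above include the isoform, which supplied 40.8% of the mean. The percentage of Agrp in the known transcript averaged 46.3 ± 29.4 (SD, all mice) and differed between strains (share 0.285, permutation adjusted p = 3.0e-05 over 3 percentages), from 0 in AXB-12/PgnJ, with 1 mouse, to 83.2 in BXD-5/TyJ.

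Npy (chr6:49822040-49829625, plus strand) had 3 transcripts, of which the known one of 566 nt held 80.1% of the mean. Its percentage per mouse ran from 44.4 through 80.8 to 100 and had a strain share of 0.156 (permutation test, adjusted p = 0.0119 over 3 percentages). Pomc (chr12:3954482-3961124, plus strand) had 3 transcripts, and the known one of 1007 nt held 96.7%. This transcript alone ranged from 0.657 to 6090 FPKM.

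For Cartpt the long second exon printed above was in a minority of the transcripts. The known transcript that carries it held 36.6 ± 5.34% of the FPKM of the gene (SD, all mice), from 16.7% through 37.0% to 52.7%. A transcript with the short exon and a first exon of 85 nt upstream of the known start (chr13:99927332-99927416) held 59.7 ± 5.62%. Long and short forms rose and fell together over mice (r = 0.69, rho = 0.62, permutation adjusted p = 3.0e-05 and 3.5e-05, all mice; r = 0.63 without the 2 farthest mice). The percentage of the long form did not pass the test between strains (share 0.095, permutation adjusted p = 0.0691). Strain means ran from 26.1% in BXD64 to 46.1% in C57L/J, with 36.6% in C57BL/6J and 31.5% in DBA/2J. The short exon is also annotated in GENCODE M21. Assignment of short paired reads to transcripts that share most exons is an estimate, and its error is not in the table.

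Markers of cortex and hippocampus and of thalamus were lower in mice with more Agrp, Cartpt or, below 10 FPKM of Gh, Pomc. The summed FPKM of the cortex and hippocampus markers found (Slc17a7 and Tbr1) ranged from 0.691 through 22.9 to 94.2, and it was lower in mice with more Cartpt (r = -0.60, rho = -0.52, permutation adjusted p = 3.0e-05 and 3.5e-05, all mice; r = -0.54 without the 2 farthest mice). The same sum was related to Agrp (r = -0.33, rho = -0.26, permutation adjusted p = 3.0e-05 and 1.5e-04; r = -0.24 without the 2 farthest). For Pomc in mice below 10 FPKM of Gh it gave r = -0.35 (rho = -0.30, 135 mice, permutation adjusted p = 1.3e-04 and 7.6e-04; r = -0.26 without the 2 farthest). The relation to Npy did not pass (r = -0.05, rho = -0.03, permutation adjusted p = 0.456 and 0.667). The sum of the 5 thalamus markers (Tcf7l2, Prkcd, Tnnt1, Lef1 and Ramp3), 14.0 through 200.4 to 365.1 FPKM, was related to Cartpt likewise (r = -0.41, rho = -0.44, permutation adjusted p = 3.0e-05 and 3.5e-05; r = -0.36 without the 2 farthest). It was also related to Agrp (r = -0.19, rho = -0.19, permutation adjusted p = 0.00347 and 0.00281; r = -0.15 without the 2 farthest) and, below 10 FPKM of Gh, to Pomc (r = -0.20, rho = -0.27, 135 mice, permutation adjusted p = 0.0379 and 0.00348; r = -0.18 without the 2 farthest). For Npy it passed by rho and not by r (r = -0.13, rho = -0.14, permutation adjusted p = 0.0518 and 0.0331; r = -0.10 without the 2 farthest). The sum of the 5 choroid plexus markers found, 4.73 through 16.6 to 1526 FPKM, was related to Cartpt (r = -0.32, rho = -0.31, permutation adjusted p = 3.0e-05 and 3.5e-05; r = -0.30 without the 2 farthest) and to Agrp (r = -0.16, rho = -0.16, permutation adjusted p = 0.0124 and 0.0130; r = -0.16 without the 2 farthest), while Npy (r = 0.04) and Pomc (r = -0.12) did not pass. The part of these tissues in the results was not tested beyond the covariates below. With the cortex and thalamus sums as covariates, chosen after the data were seen, the strain shares were 0.240 for Agrp, 0.280 for Npy, 0.168 for Pomc and 0.238 for Cartpt, and all 4 passed the limma test. The correlations of Agrp with Npy (r = 0.49) and of Pomc with Cartpt (r = 0.33) stayed past their threshold. Those of Npy with Pomc (r = 0.29) and of Npy with Cartpt (r = 0.27) passed by r and not by rho. Those of Agrp with Cartpt (r = 0.18) and with Pomc (r = 0.12) did not pass. The defining hypothalamic markers Nkx2-1, Hcrt, Pmch, Oxt, Avp and Agrp were all present, with a summed FPKM of 531 to 7516.

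Most other genes of the feeding circuit differed between strains. Of 42 circuit genes tested in 6 lists, 36 passed the limma test over 99 strains (85.7%, against 66.7% of all names), with a median share of 0.223. The counts and shares of these genes include BXD-12/TyJ mouse 2, and BXD-12/TyJ was the highest strain for Mrap2, Scg5, Gal, Pmch and Hcrt, among others. In mice below 10 FPKM of Gh, 13 of 42 passed, where 26.1% of all names did. By list these were 2 of 8 receptors and partners, 4 of 7 processing genes and 1 of 12 inputs. The rest were 2 of 7 transcription factors, 2 of 6 other arcuate transmitters and 2 of 2 lateral hypothalamus peptides. The lists were chosen by function, and Mc4r, the melanocortin receptor best known for body weight, was not among the named genes, nor were Npy4r, Ppyr1, Npy6r, Ghsr, Glp1r, Tbx3, Prdm12, Rax and Kiss1.

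**Figure D5:**
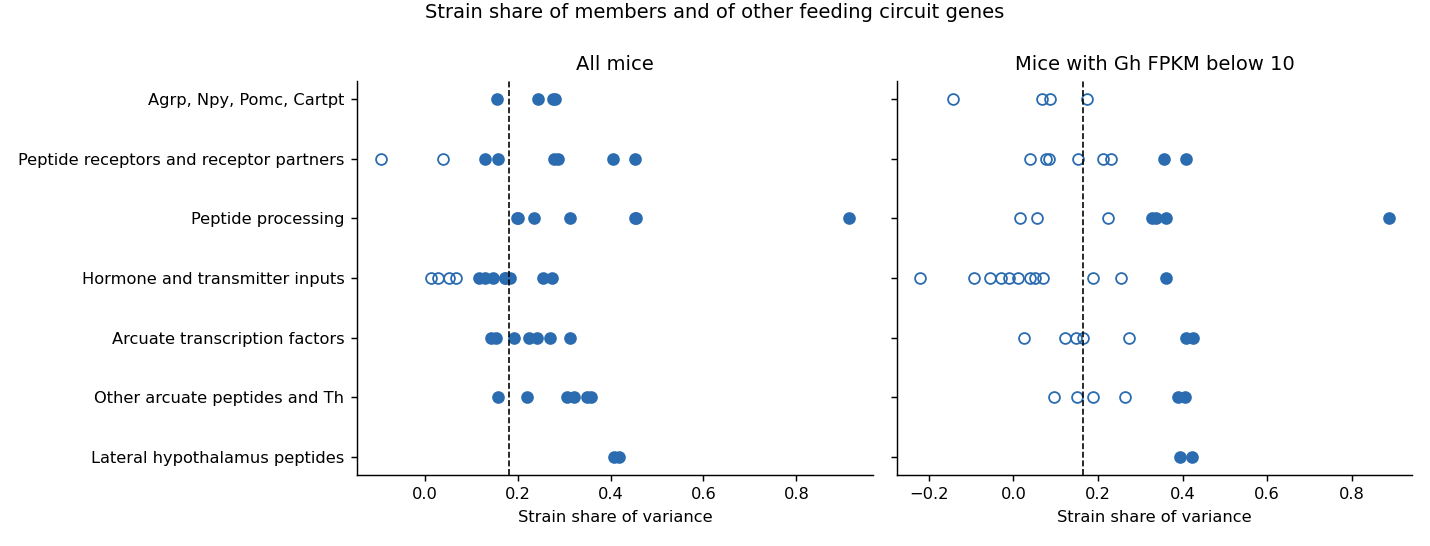
Each point is the strain share of variance (horizontal axis) of one gene in the list named on the left, in all mice (left panel, 99 strains) and in mice with Gh below 10 FPKM (right panel, 75 strains). Filled points passed the limma test, open points did not, and the dashed line is the median of all named genes (0.182 and 0.164). Scg5 is the point at 0.914 in the left panel, and in the right panel all 4 members are open.

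Of 8 receptors and receptor partners, 6 passed over all mice, where 66.7% of all names did. The largest share was that of Mrap2, an accessory protein of melanocortin receptors (0.453, limma adjusted p = 6.2e-12), and the smallest that of the neuropeptide Y receptor Npy5r (-0.095, adjusted p = 0.935). Npy1r, a main receptor of Npy, passed (3.19 ± 0.720 FPKM, share 0.130, limma adjusted p = 0.0310), and Mc3r, the melanocortin receptor also found on arcuate neurons, did not (1.41 ± 0.676 FPKM, share 0.039, adjusted p = 0.280).

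All 7 genes of peptide processing passed over all mice, beside 66.7% of all names. Scg5, which encodes the 7B2 chaperone of the convertase Pcsk2, had a share of 0.914 (258 ± 106 FPKM, limma adjusted p = 6.6e-76), with strain means from 140 FPKM in BXA-14/PgnJ to 578 in BXD-12/TyJ, the strain of the library that stands apart. Pcsk1, the convertase that starts the cutting of Pomc, had a share of 0.314 (8.69 ± 2.39 FPKM), Pcsk2 0.455 (73.7 ± 11.3 FPKM) and Prcp, the enzyme that inactivates alpha-MSH, the smallest of the list, 0.199. Over strain means, r between Scg5 and the members lay between -0.06 for Pomc and 0.23 for Cartpt.

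Of 12 hormone and transmitter inputs, 8 passed, a share (66.7%) close to the background. Lepr, the leptin receptor, passed at a low level (0.768 ± 0.333 FPKM, share 0.130, limma adjusted p = 0.0298). Ptpn1, a phosphatase that dampens leptin and insulin signals, had the largest share (0.275) and Socs3, a leptin feedback inhibitor, the smallest (0.014, limma adjusted p = 0.418). All 7 arcuate transcription factors passed, from Bsx (0.144) to Nkx2-1 (0.313). All 6 other arcuate transmitters passed, from Th (0.158) to the galanin gene Gal (0.357), and both lateral hypothalamus peptides did, Hcrt (0.407) and Pmch (0.419).

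Genes with the strain pattern most like that of a member were sought among names with a mean of at least 1 FPKM, by Pearson's r over strain means. For Agrp the closest of all was Npy (r = 0.48, 99 strains), followed by Hdac11 (0.46), Podxl2 (0.44), Cited1 (0.44) and Tmem91 (0.43). For Npy they included the ribosomal protein gene Rps15 (0.54), Ptplad1 (0.52), Vps16 (0.52) and Dpm2 (0.52), and without BXD-12/TyJ mouse 2 these fell to between 0.43 and 0.46. For Cartpt they were Nap1l5 (0.64), Ahi1 (0.63), Smim19 (0.61), Resp18 (0.60) and the lateral hypothalamus peptide gene Pmch (0.59). For Pomc below 10 FPKM of Gh they were Pafah1b3 (0.59, 75 strains), Svop (0.59), Rpl35 (0.56), Tmem179 (0.56) and Rrp1 (0.55). Without BXD-12/TyJ mouse 2, r was 0.43 for Agrp with Npy, 0.63 for Cartpt with Nap1l5 and 0.53 for Pomc with Pafah1b3. Within 2 Mb of each member, the name with the largest absolute r was Tk2 for Agrp (0.40), Atp6v0e2 for Npy (0.44), Ubxn2a for Pomc (-0.44) and Utp15 for Cartpt (-0.36). The median absolute r of names in these windows was 0.11, 0.11, 0.17 and 0.14, beside 0.12, 0.14, 0.16 and 0.13 over all names. These values are the largest of many and carry no test.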

How the data were processed

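Per the labels, 1 unstranded mRNA library was made from the whole hypothalamus of each mouse. As the paper's methods and the submitters' processing notes state, the authors used STAR 2.3.1 for alignment to mm10, Cufflinks 2.2.0 for assembly within each strain, a merge with GENCODE M2, and Cuffnorm 2.2.1 for quantification. The deposited values are FPKM, which Cuffnorm scaled across libraries. Because they hold no counts, the depth behind a value is unknown, no interval for counting error is given, and the spread over mice stands for precision. The deposited table holds only features above the authors' detection thresholds, and other transcripts were not analysed here. Numbers of mapped reads were not in the table and were used only as a covariate. Of the columns of values per mouse, 0 were left out.

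FPKM of transcripts with the same gene name were summed. Strains were compared on log2(FPKM + 1) in 1 fit of limma 3.58.1 (R 4.3.3) over 12874 names, with a moderated F test over strains, within strain sets and for parental contrasts, adjusted by Benjamini-Hochberg at 0.05. Fold changes on this scale understate changes of low genes. The libraries of CXB-6/ByJ mice 2 and 3 differed by a constant factor over all features. They were averaged and counted once, a step chosen after the data were seen, whereas the tests had been laid out for every mouse with a strain. The mouse with 2 strain names in its labels entered no comparison. The labels do not say that mice of a strain come from separate litters. The strain share was (F - 1)/(F - 1 + n0), with n0 the effective number of mice per strain. For a strain set, F was the mean square between its own strains over the residual mean square of all strains in the fit. Correlations and log ratios were tested with 2-sided and 1-sided permutation tests respectively, with 100000 resamples (all orders for fewer than 10 strains), in Python 3.11.15 (scipy 1.17.1, numpy 2.4.6, pandas 2.3.3). The strain fit was tested on simulated data. The alternatives tried were other pseudocounts, expression minimums, normalizations, covariates, transcript sums and sets of mice, with Gh below 10 FPKM among them.

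Genes were named by rule: the members and their transcripts, the largest and smallest strain share of each list with Mc4r, Mc3r, Npy1r, Lepr, Pcsk1 and Pcsk2, the 5 names closest to each member, and the 3 highest and 3 lowest strains. Some genes that this rule or the marker lists name are not reported here. The members, lists and thresholds were chosen with earlier results of these data known. Pmch, Hcrt, Oxt, Avp, Pcsk1 and Pcsk2 in single libraries, RIIIS/J, and other single mice were named after their values were seen. Alternatives described as added or chosen after the data were seen are the Gh covariate over all members, the marker covariates, known transcripts for correlations, CXB-6/ByJ mice 2 and 3 as separate mice, and leaving out BXD-12/TyJ mouse 2 together with CXB-3/ByJ mouse 3 or with Gh at or above 10 FPKM.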

Additional observations from a re-analysis of the deposited data

How the results depend on the processing

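All 4 members kept their strain call under other pseudocounts, an expression minimum, quantile normalization, read covariates, known transcripts alone and without the libraries that stand apart. The exceptions were Agrp in the deposited locus row (share 0.0255), and Pomc by the Kruskal-Wallis test (0.136) and without replicates 1 and 2, but not 3 (range -0.0579 to 0.308). Counting CXB-6/ByJ mice 2 and 3 as separate mice, as deposited, gave shares of 0.245 for Agrp, 0.283 for Npy, 0.157 for Pomc and 0.278 for Cartpt, and changed no call of a member, set combination, parental contrast or circuit count. With Gh below 10 FPKM the shares were 0.0872 for Agrp, 0.173 for Npy, -0.143 for Pomc and 0.0686 for Cartpt, with 0 of 4 called, 3362 named genes, 13 circuit genes, 0 set combinations (Cartpt in the inbred set at -0.000831) and 0 ratios (Agrp minus Npy 0.0176). Also without BXD-12/TyJ mouse 2 they were 0.242, 0.141, -0.115 and 0.184. Pomc had 0.144 with the Gh covariate in all mice. Leaving out each replicate number in turn gave 5041 to 6621 named genes, 18 to 26 circuit genes, 1 to 6 set combinations and 0 ratios (Agrp minus Npy 0.165 to 0.223), where most strains keep 2 mice. With a pseudocount of 0.1, 2 ratios passed, with Agrp minus Pomc at 0.327. Set combinations were 10 without BXD-12/TyJ mouse 2 and 11 without CXB-3/ByJ mouse 3 as well.

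Agrp and Npy correlated in the same direction under all alternatives, and fell short of the threshold only within AXB/BXA (0.595), BXH (0.768), CXB (0.713) and inbred strains (0.431), and within strains below 10 FPKM of Gh without BXD-12/TyJ mouse 2 (0.323). Of 6 pairs, 3 passed without the 2 farthest strains, 3 without BXD-12/TyJ mouse 2, 3 without both libraries, 0 within AXB/BXA, BXH or CXB, and 1 within inbred strains. Agrp and Pomc had 0.111 without the 2 farthest strains, 0.167 without BXD-12/TyJ mouse 2 and without both libraries, 0.225 with a pseudocount of 0.1, 0.201 after quantile normalization, 0.215 from known transcripts, 0.118 with marker covariates, -0.0506 in all mice, 0.186 to 0.535 without each replicate number, and 0.0832, -0.571, -0.317 and 0.219 in AXB/BXA, BXH, CXB and inbred strains. Npy and Pomc had 0.190 without the 2 farthest strains, 0.227 without BXD-12/TyJ mouse 2 and without both libraries, -0.0566 in all mice, 0.430 within strains, 0.321 within strains without that mouse, 0.169 to 0.536 without each replicate number, and 0.186, -0.492 and -0.769 in AXB/BXA, BXH and CXB. Npy and Cartpt had 0.158 without the 2 farthest strains, 0.185 without BXD-12/TyJ mouse 2, 0.155 without both libraries, 0.200 after quantile normalization, 0.0988 from known transcripts, 0.194 to 0.431 without each replicate number, and 0.182, 0.437, 0.218 and 0.0353 in AXB/BXA, BXH, CXB and inbred strains. Agrp and Cartpt had 0.175 with marker covariates and -0.134, 0.616, 0.683 and 0.339 in the same sets. Pomc and Cartpt had 0.0165 in all mice and -0.297, 0.0537, 0.190 and 0.546 in those sets. The cause of these changes was not tested, and smaller sets hold fewer strains.

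No paired analysis was possible because mice were numbered within a strain in accession order only. FPKM below 1, as for Agrp in 58 mice, are near the floor, and the number of reads behind them is unknown.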

Other observations

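Mouse OB-627, whose labels name 2 strains, entered no comparison between strains. It had 2.18 FPKM of Agrp, 18.5 of Npy, 29.8 of Pomc and 70.9 of Cartpt, with 8.53 FPKM of Gh. Each value lies within the range of the other mice.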
